A study of Mus musculus with 12 samples.

Results

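Open chromatin was compared between mouse progenitors that had been cultured on the Notch ligand Delta1 and progenitors cultured without it. DNase I hypersensitive sites (DHSs) were the unit of comparison. Merging the peaks of 2 DN1 libraries and 3 IgG libraries wherever they overlapped by 1 bp or more gave 117824 regions on chromosomes 1 to 19 and X. A region was placed on the Delta1 side when both DN1 libraries and no IgG library had a peak in it, and on the control side when all 3 IgG libraries and neither DN1 library did. This put 30589 DHSs on the Delta1 side and 4274 on the control side, 34863 in all, out of 170207 regions in the 12 libraries of the series. Each side was then divided by the 3 libraries of uncultured cells, with a DHS called kept when at least 2 of them had a peak in it and new when none had.

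The cells of all groups began as LSK cells, the marrow fraction without lineage markers that carries SCA1 and KIT and holds stem and multipotent progenitor cells, from C57BL/6J (Ly5.2) mice of unstated age. The LSK libraries hold these cells directly after isolation. DN1 cells were grown on a high density of immobilized Delta1ext-IgG with SCF, FLT3 ligand, IL-6 and IL-11 and were sorted as KIT++CD44+CD25- cells without IL-7. IgG cells were grown on human IgG in the same factors, and no sort for them was stated, so that ligand and sort cannot be told apart. DN2a and DN2b cells, the following T cell precursor stages, came from Delta1 cultures that also received IL-7, and they served here only as 4 further libraries in which to look the DHSs up.

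Notch is a receptor that is cleaved once it binds a ligand such as Delta1. The final cut is made by gamma-secretase, and the freed intracellular part enters the nucleus and joins the DNA-binding protein RBPJ at its target genes. In marrow progenitors a strong Notch signal is known to start the T lineage program, with TCF1 (from Tcf7) among its first regulators, while cells without the signal become myeloid in growth factors like those used here. RUNX proteins act in both stem and T cells, and C/EBP proteins drive granulocytes and macrophages.

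The strongest DHSs of each class are shown first because they are the clearest members of their side, and their 150 bp peaks are printed from GRCm38, the assembly behind mm10, on the forward strand. Strength was the percentile of the deposited peak score within its own library, where 100 is the highest. For each side and class the first 2 are given, and capitals mark matches on either strand to any of the 11 short motifs counted further on. On the Delta1 side, the kept DHSs lay at chr5:116029137-116029286, in an exon 4.70 kb before the start of Prkab1, and at chr17:56819797-56819946, in an intron 11.2 kb past the start of Rfx2. The new ones lay between genes, at chr17:84116677-84116826, 71.2 kb past the start of Zfp36l2, and at chr11:106961797-106961946, 37.7 kb past the start of Kpna2.
Prkab1, Delta1 side, kept: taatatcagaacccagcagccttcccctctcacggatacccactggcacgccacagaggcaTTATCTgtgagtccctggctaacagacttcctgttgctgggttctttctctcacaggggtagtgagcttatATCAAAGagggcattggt
Rfx2, Delta1 side, kept: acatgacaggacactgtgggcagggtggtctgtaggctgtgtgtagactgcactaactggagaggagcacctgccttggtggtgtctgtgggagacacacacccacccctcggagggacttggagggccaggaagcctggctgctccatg
Zfp36l2, Delta1 side, new: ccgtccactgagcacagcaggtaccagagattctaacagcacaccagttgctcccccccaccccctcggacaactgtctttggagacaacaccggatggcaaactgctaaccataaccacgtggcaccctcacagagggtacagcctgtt
Kpna2, Delta1 side, new: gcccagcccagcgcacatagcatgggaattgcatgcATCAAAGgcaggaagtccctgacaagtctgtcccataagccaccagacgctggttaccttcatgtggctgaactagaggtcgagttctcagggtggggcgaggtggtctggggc

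On the control side, the kept DHSs lay between genes, at chr9:123936757-123936906, 31.9 kb past the start of the chemokine receptor gene Ccr1, and at chr2:11441957-11442106, 112 kb past the start of Pfkfb3. The new ones lay at chr1:193242417-193242566, in an exon 21.6 kb past the start of Hsd11b1, and at chr12:73755777-73755926, in an intron, with the start of Hif1a the nearest at 146 kb further along, so that the DHS lay before it.
Ccr1, control side, kept: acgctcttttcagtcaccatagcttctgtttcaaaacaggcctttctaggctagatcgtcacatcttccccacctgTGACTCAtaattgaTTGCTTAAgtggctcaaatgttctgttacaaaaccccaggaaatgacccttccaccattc
Pfkfb3, control side, kept: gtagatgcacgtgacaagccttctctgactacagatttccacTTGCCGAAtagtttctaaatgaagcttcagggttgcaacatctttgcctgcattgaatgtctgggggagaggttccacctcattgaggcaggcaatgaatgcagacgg
Hsd11b1, control side, new: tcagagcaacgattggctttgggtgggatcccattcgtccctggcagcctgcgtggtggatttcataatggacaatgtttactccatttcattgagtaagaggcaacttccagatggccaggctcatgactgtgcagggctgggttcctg
Hif1a, control side, new: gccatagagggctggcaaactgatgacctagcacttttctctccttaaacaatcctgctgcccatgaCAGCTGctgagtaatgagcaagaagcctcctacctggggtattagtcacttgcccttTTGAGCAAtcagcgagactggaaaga

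These DHSs ranked near the top of their libraries. The kept DHS before Prkab1 was at percentiles 99.5 and 99.4 in the DN1 libraries and at 97.8, 97.6 and 99.5 in the LSK libraries, so it was about as high before culture, and no IgG library had a peak in it. The new DHS past Zfp36l2 was at 99.7 and 98.4 in DN1, absent from LSK and at 98.1 to 99.6 in the 4 DN2 libraries. The DHS near Ccr1 was at 99.9, 99.3 and 99.96 in IgG and at 85.9, 67.6 and 78.7 in LSK, and it had no peak in either DN1 library. One DN2a library had a peak in it, at 48.6. It held 1 match to the AP-1 motif and 1 to the C/EBP motif. Of the 4 control-side sequences printed, 3 held a C/EBP match, against none of the 4 from the Delta1 side. So few sequences give no share. Over all DHSs more than 1 kb from a gene start it was 41.3% on the control side and 5.04% on the Delta1 side. Among such DHSs open in all 5 libraries it was 10.9%. The DHS near Hsd11b1 held no match to any motif searched and was at 97.9, 98.1 and 94.9 in IgG. Next in order came DHSs nearest to Scfd2 (kept) and Cntn1 (new) on the Delta1 side and to Tax1bp1 (new) on the control side.

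Peak numbers differed between the cultures before any DHS was compared. Over all chromosomes the DN1 libraries held 96508 and 69421 peaks and the IgG libraries 37550, 32977 and 37530. On chromosomes 1 to 19 and X the means were 82914 ± 19124 (SD, n = 2) and 35991 ± 2632 (SD, n = 3), 2.30-fold apart, and the groups did not overlap (two-sided exact permutation test, p = 0.1). With 2 against 3 libraries, 0.1 is the smallest p that the 10 divisions allow, so no single value here can reach 0.05. The peak lists carry no read totals and depth is unknown. A shorter list leaves out more of the weak sites. The main counts are therefore repeated with all lists shortened, by score, to the length of the shortest one, that of IgG replicate 2 (equal list lengths).

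The 30589 Delta1-side DHSs were 26.0% of all merged regions and the 4274 control-side DHSs were 3.63%. With lists of equal length the counts were 7851 (13.2% of 59614 regions) and 6349 (10.7%). On the Delta1 side 7372 DHSs were called at both lengths, which is 24.1% of the 30589 and 93.9% of the 7851. For the control side, 4040 DHSs were called at both lengths, which is 94.5% of the 4274 and 63.6% of the 6349. A further 16314 DHSs were open in all 5 libraries, or 13593 at equal list lengths. The number of Delta1-side DHSs rested on both DN1 libraries, since it rose to 60302 with DN1 replicate 2 left out.

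**Figure D1:**
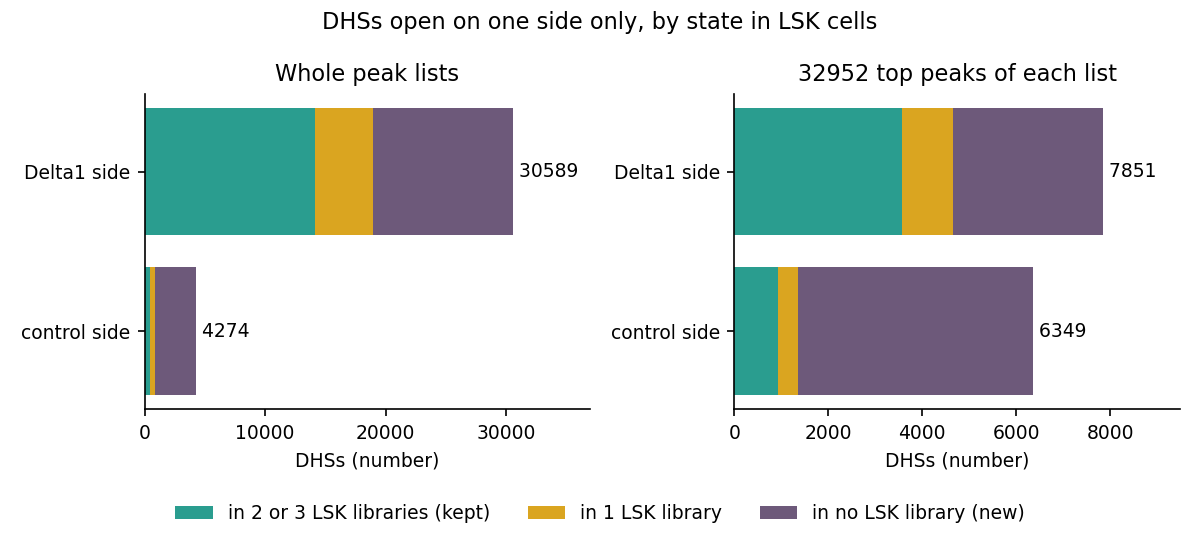
Bars give the number of DHSs on each side, divided by the number of LSK libraries with a peak (kept, in 1 library, new), for the whole lists on the left and for equal list lengths on the right. The control side is mostly new in both panels, with 3408 of 4274 and 4993 of 6349, while the Delta1 side is divided between kept and new.

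The sides differed in where they came from. Of Delta1-side DHSs 46.3% (95% Wilson interval 45.8 to 46.9) were kept from LSK, 15.5% were in 1 LSK library and 38.1% (37.6 to 38.7) were new. Of control-side DHSs 10.3% (9.40 to 11.2) were kept and 79.7% (78.5 to 80.9) were new. The kept share of the control side was 19.3% without DN1 replicate 1. It was 20.3% where a peak in 1 LSK library was enough and 5.38% where all 3 had to have one. Equal list lengths gave 45.4% and 40.6% for the Delta1 side and 14.5% and 78.6% for the control side. Among DHSs open in all 5 libraries 95.1% were kept. In numbers, 14170 kept DHSs lay on the Delta1 side and 439 on the control side in the whole lists, and 3564 and 920 at equal list lengths. These intervals cover counting error only.

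Both sides lay away from gene starts. Promoters, the 1 kb on either side of the start of a protein-coding gene, took 9.78% of Delta1-side DHSs and 5.12% of control-side DHSs, compared with 49.3% of DHSs open in all 5 libraries. At equal lengths the sides had 10.3% and 8.14%. Introns took 47.9% and 51.1%, and the space between genes 35.4% and 37.6%. The median GC content was 49.3% on the Delta1 side, 46.0% on the control side and 57.3% in the DHSs open everywhere.

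The DN2a and DN2b libraries, which the sides did not use, held most of the Delta1 side and little of the control side. Delta1-side DHSs had a peak in 67.4% and 52.0% of cases in the DN2a libraries and in 54.3% and 77.4% in the DN2b libraries (mean 62.8% ± 11.9, SD, n = 4). Control-side DHSs had one in 3.32%, 1.78%, 2.34% and 6.76% (mean 3.55% ± 2.23, SD, n = 4), and without DN1 replicate 1 the mean was 9.85%. The ranges were far apart at equal list lengths too, at 65.7% ± 4.12 and 5.09% ± 0.220 (SD, n = 4). DHSs that were new on the Delta1 side returned less often than kept ones, at 50.3% ± 11.9 and 74.4% ± 11.4 (SD, n = 4), and in every DN2 library the new share was the lower one. No DN2 library had a peak in 3905 control-side DHSs (91.4%), and all 4 had one in only 21. On the Delta1 side 11770 DHSs were open in all 4. DN2 cells share the ligand with DN1 cells, were also sorted and, according to the methods of the study, came from the same LSK isolates. The 4 DN2 libraries are therefore not independent of the DN1 libraries or of each other, their SDs describe the spread between libraries only, and the part of ligand, sort or isolate in this recurrence was not tested.

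**Figure D2:**
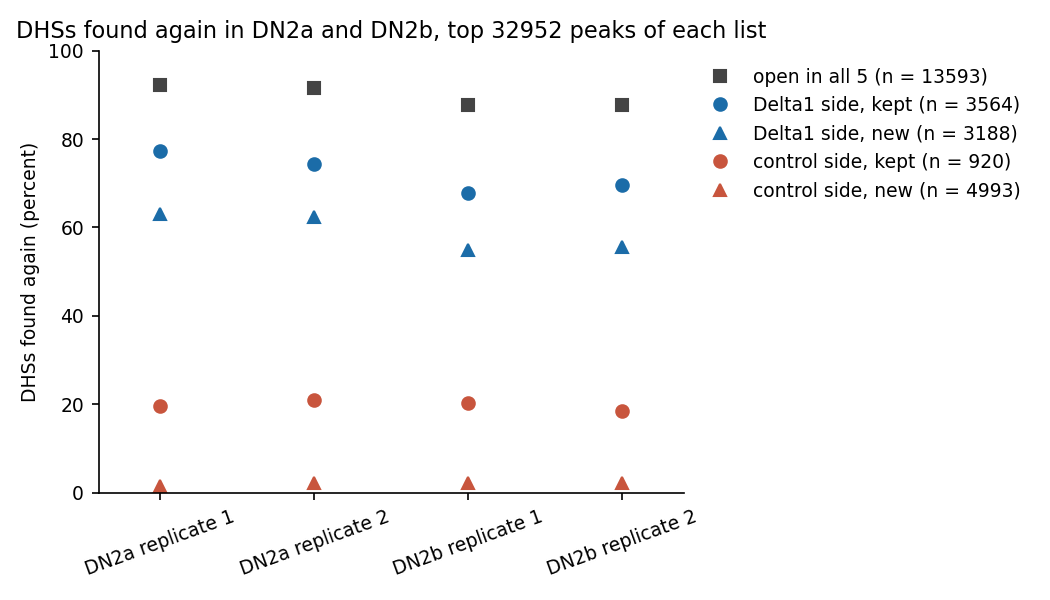
Each symbol is the share of a class of DHSs (vertical axis, percent) that had a peak in one DN2a or DN2b library (horizontal axis), at equal list lengths, and squares are DHSs open in all 5 libraries. Delta1-side DHSs lie between 55.0% and 77.2%, and control-side DHSs at 20.9% or below.

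Among promoters, 1104 of 21755 protein-coding genes (5.07%) were open in both DN1 and no IgG library, and 92 (0.423%) in all 3 IgG and neither DN1 library. Equal list lengths gave 347 (1.60%) and 279 (1.28%). Without DN1 replicate 1 there were 177 control-side promoters, and without DN1 replicate 2 there were 1932 Delta1-side promoters. Of the 1104, 746 were kept from LSK and 201 were new. Of the 92, 27 were kept and 53 new. The observed over expected CpG ratio in 2 kb around the start averaged 0.464 ± 0.221 (SD) for the Delta1-side promoters and 0.274 ± 0.175 (SD) for the control-side promoters, against 0.642 ± 0.163 for promoters open in all 5 and 0.276 ± 0.195 for those open in none. The values of the sides at equal list lengths were 0.450 and 0.425.

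The 6 highest Delta1-side promoters belonged to Olfr646, Rcsd1, Tespa1, Zfp385a, Klrd1 and Mycn. Tespa1 codes for a thymocyte protein of T cell receptor signalling, and its promoter was at percentiles 97.2 and 94.7 in DN1. Klrd1, for the NK cell receptor CD94, was at 96.0 and 94.2 in DN1 and at 12.6 and 28.6 in LSK, with no peak in the third LSK library. Mycn, for the growth regulator N-Myc, was at 94.8 and 94.97 in DN1 and between 85.2 and 90.6 in LSK. All 6 had a peak in all 4 DN2 libraries.

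The 6 highest control-side promoters belonged to Psen2, Ndel1, Hal, Rnf11, Slc11a1 and Trem3. Psen2 (chr1:180227004-180263438) codes for a catalytic subunit of gamma-secretase, and its promoter was at 93.5, 94.0 and 97.4 in IgG, at 52.7 in 1 LSK library and without a peak in the other two. Slc11a1, for a metal transporter of phagosomes, was at 89.7, 89.6 and 89.7 in IgG, and Trem3, for a myeloid receptor, was at 90.1, 90.0 and 84.5. None of the 6 had a peak in any DN2 library.

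The genes that mark the sort gave the following values. Kit, the receptor for SCF, had an open promoter in all 5 libraries, at 90.5 and 84.2 in DN1 and 69.8, 14.2 and 62.8 in IgG. Ranked among the DHSs open in all 5 libraries, the same promoter was at 54.4 and 49.2 in DN1 and 46.6, 3.18 and 35.4 in IgG and was not called (limma adjusted p = 0.156). Cd44 was open in all 5 as well, at 91.1 and 81.3 in DN1 and 83.5, 84.7 and 87.4 in IgG, and these ranges overlapped. Ranked among the DHSs open in all 5 libraries, the Cd44 promoter was at 56.9 and 43.2 in DN1 and 67.2, 73.1 and 73.7 in IgG, without overlap but not called (limma adjusted p = 0.0875), and at equal list lengths the difference of the mean percentiles was -16.6 for DN1 minus IgG. Il2ra, for CD25, had no promoter peak in LSK, DN1 or IgG and one in all 4 DN2 libraries, at 84.7 to 93.0. The sex of the donor mice was not given. Of 4 Y-linked genes, DN1 replicate 1 had 3 open promoters and replicate 2 had 0, and the IgG libraries had 2, 0 and 0. The LSK libraries had 3, 4 and 3, and of the DN2 libraries 1 had 2 and the others 0. The promoter of Xist, the RNA that silences one X chromosome in females, was at 76.5 and 65.9 in DN1 and at 26.5 and 15.6 in 2 IgG libraries, with no peak in the other. The part of donor sex in the comparison was not tested.

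Notch target genes were described next, as 20 genes known to respond to Notch in blood cells. Of their promoters, 2 were on the Delta1 side (Tcf7 and Bcl11b), none on the control side, 4 were open in all 5 libraries, 8 in none and 6 in some other pattern, where 5.07% and 0.423% of all promoters were on the sides. The promoter value of a gene is that of its highest peak within 1 kb, which may lie in different DHSs in different libraries. Counted by DHSs whose nearest start is the gene's own and lies within 100 kb, 17 of the 20 genes had at least 1 Delta1-side DHS, with 65 DHSs in all, and 5 had a control-side DHS, with 7. Over all genes 51.1% had at least 1 Delta1-side DHS and 12.4% at least 1 control-side DHS. At equal list lengths 12 genes had a Delta1-side DHS (22 DHSs) and 6 a control-side DHS (11 DHSs), where 20.4% and 17.1% of all genes had one.

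Hes1 (chr16:30064384-30067796), the repressor that is the best known direct Notch target, had 13 Delta1-side DHSs and no control-side DHS (5 and 0 at equal list lengths). The 13 ran from 68.3 kb before the start to 96.2 kb past it, and 5 were kept, 4 in 1 LSK library and 4 new. Its promoter had a peak in every library, but no single promoter DHS was open in all 5. The DHS 838 bp past the start was at 98.1 and 98.0 in DN1 and at 26.6 and 37.6 in 2 IgG libraries, with no peak in the other, and LSK had 50.8, 55.4 and 64.3. The DHS 112 bp before the start was at 88.7 and 87.3 in DN1, at 17.0 and 26.8 in 2 IgG libraries and at 85.9, 87.9 and 89.3 in LSK. Both DHSs were higher in DN1 than in each IgG library. By the highest promoter peak at equal list lengths, DN1 had 94.4 and 95.9 and IgG 16.4, 17.0 and 28.9. The one DHS of Hes1 open in all 5 libraries, 39.5 kb before the start, went the other way, at 5.88 and 15.9 in DN1 and 30.0, 28.8 and 72.7 in IgG on the scale of ranks among shared DHSs (limma adjusted p = 0.0373, and 0.622 by the whole-list percentile). Hey1, a relative of Hes1, was at 85.4 and 77.0 in DN1 and had a peak in only 1 IgG library, at 9.68. Nrarp, a feedback inhibitor of Notch, was at 87.6 and 84.8 in DN1, and in IgG it was at 68.7 and 52.8 in 2 libraries and had no peak in the third.

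Tcf7 (chr11:52252371-52283014) codes for TCF1, and its promoter was at 43.6 and 45.2 in DN1, with no peak in any LSK or IgG library and 54.3 to 73.0 in the DN2 libraries. It had 7 Delta1-side DHSs and no control-side DHS (3 and 0 at equal list lengths). Its promoter had no peak in either DN1 library at equal list lengths and was not called. A kept DHS 31.4 kb before the start (chr11:52314337-52314486, between genes) was at 86.7 and 88.7 in DN1, at 33.1, 10.5 and 24.1 in LSK and at 95.7 to 99.3 in the DN2 libraries. A new DHS in an intron of Il2ra, 15.0 kb past its start (chr2:11657717-11657866), was at 62.0 and 30.5 in DN1 and at 68.9 to 86.3 in DN2, at a gene whose promoter had no peak in DN1. This DHS had no peak in the 5 libraries at equal list lengths, so its call was lost there. Both sequences are shown for the motifs they hold, and they were chosen after their values were seen. Capitals mark TTCCCAC, the RBPJ motif on the opposite strand, in the first and a RUNX match (TGTGGTT) and a TCF1/LEF1 match on the opposite strand (CTTTGAT) in the second.
Tcf7, 31.4 kb before the start: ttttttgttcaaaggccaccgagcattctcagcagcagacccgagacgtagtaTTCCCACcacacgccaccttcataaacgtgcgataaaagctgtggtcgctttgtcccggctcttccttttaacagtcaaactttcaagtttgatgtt
Il2ra, 15.0 kb past the start: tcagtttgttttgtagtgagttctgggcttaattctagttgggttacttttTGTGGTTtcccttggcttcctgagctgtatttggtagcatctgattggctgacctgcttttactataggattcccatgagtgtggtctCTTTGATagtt

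Bcl11b (chr12:107910403-108003602), which commits precursors to the T lineage, had a promoter at 69.7 and 61.8 in DN1 and at 27.3, 6.12 and 21.3 in LSK, with no peak in IgG and 95.2 to 97.4 in the DN2 libraries. Il7r, for the IL-7 receptor, was at 90.8 and 92.9 in DN1 and had a peak in 1 IgG library, at 21.2. Ccnd1, for cyclin D1, was at 89.1 and 86.4 in DN1 and at 7.46 and 40.04 in 2 IgG libraries. Myc was open in all 5, at 94.8 and 94.4 in DN1 and 80.5, 80.9 and 85.7 in IgG. Ranked among shared DHSs, the Myc promoter was not called (difference 0.27, limma adjusted p = 0.407), and a DHS 1.85 kb before its start was higher in IgG (-0.70, limma adjusted p = 0.0326). Igf1r was also open in all 5, at 75.8 and 78.6 in DN1 and 80.5, 14.2 and 42.4 in IgG, which overlapped, and the difference of the means turned to -0.156 at equal list lengths. Hes5 and Dtx1 had a promoter peak in 1 DN1 library each, at 27.2 and 33.1, and none in IgG or LSK. No DN1 or IgG library had a promoter peak for Gata3, Notch1, Notch3, Heyl, Hes7, Cdkn1a, Ptcra or Il2ra.

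The 38 other genes of the pathway are the receptors, ligands, RBPJ and its partners, the proteases and the modifiers. Of their promoters 25 were open in all 5 libraries, 1 was on the Delta1 side and 1 on the control side, where 8096 of all 21755 promoters were open in all 5 and 5.07% and 0.423% were on the sides. Equal list lengths gave 0 and 2, where all promoters gave 1.60% and 1.28%. Their DHSs within 100 kb numbered 57 on the Delta1 side and 21 on the control side in the whole lists, but 17 and 30 at equal list lengths, so no direction is given for this list. The Delta1-side promoter was that of Maml2, a co-activator of the RBPJ complex, at 56.6 and 55.2 in DN1, and the control-side promoter was that of Psen2, given above. Notch2 had DHSs of both kinds, 9 on the Delta1 side and 8 on the control side, or 3 and 8 at equal list lengths. Rbpj had 4 DHSs on either side, or 2 and 5 at equal list lengths.

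The T lineage list had 9 of 25 promoters on the Delta1 side and none on the control side, where all promoters gave 5.07% and 0.423%. Cd7, for a surface protein of early T cells, was at 80.4 and 81.3 in DN1. Lck was at 59.4 and 68.4, Cd2 at 56.6 and 64.6, Rag1, for a recombinase of receptor genes, at 29.4 and 53.4, and Cd27, Tox, Tcf7 and Bcl11b were also on the Delta1 side. Lists of equal length left 3 of the 9 on the Delta1 side, Cd7 and Bcl11b among them, where all promoters gave 1.60%. The genes for the T cell receptor complex were not among them, since Cd3e, Cd3d and Cd3g had no promoter peak in LSK, DN1 or IgG, whereas Cd3e and Cd3g had one in all 4 DN2 libraries. In single libraries 13 and 12 of the 25 promoters were open in DN1, 1, 1 and 3 in IgG and 8, 7 and 5 in LSK, where 54.6% and 50.2%, 44.1%, 40.9% and 43.3%, and 51.1%, 51.0% and 52.5% of all promoters were open. Shortened to equal length, the lists had 6 and 9 in DN1, 1, 1 and 3 in IgG and 2, 4 and 2 in LSK, where between 40.9% and 46.1% of all promoters were open in each of these libraries.

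The granulocyte and monocyte list had 7 of 30 promoters on the control side and 1 on the Delta1 side, where all promoters gave 0.423% and 5.07%. S100a8 and S100a9, for the calprotectin chains, were at 93.5, 97.7 and 69.3 and at 93.8, 97.8 and 61.4 in IgG. Camp, for cathelicidin, was at 97.7, 91.8 and 73.6, and Ngp, for a neutrophil granule protein, at 93.5, 92.9 and 48.9. Mmp8, for the neutrophil collagenase, was at 83.5, 80.0 and 90.2. Fcnb and Ly6c2 were the other two. None of the 7 had a promoter peak in any DN1 or DN2 library, and in LSK the only one was a peak of Camp at 6.52 in 1 library. For S100a8, S100a9, Camp and Ngp the third IgG library was the lowest of the 3. Gfi1, a repressor that acts in both granulocytes and lymphoid cells, had the Delta1-side promoter, at 69.7 and 84.8 in DN1. Equal list lengths gave 9 control-side promoters and 1 Delta1-side promoter, where all promoters gave 1.28% and 1.60%. The DHSs within 100 kb of the 30 genes did not keep one direction, with 44 on the Delta1 side and 22 on the control side in the whole lists and 17 and 33 at equal list lengths, so only the promoters are given a direction.

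The other cell type lists are read against the same shares of all promoters, 5.07% on the Delta1 side and 0.423% on the control side. Of 16 NK and innate lymphoid promoters 8 were on the Delta1 side and none on the control side, among them Klrb1c, for NK1.1, at 92.7 and 88.7 and Gzmb, for granzyme B, at 88.0 and 76.2. Among the 15 DHSs of that list open in all 5 libraries, whose ranks were compared as described further on, 2 were called higher in DN1 and 6 higher in IgG by limma, 4 of the 6 with Klrb1c as the nearest start, 9.73 to 29.0 kb from it, and the whole-list percentile gave 4 and 0. Of 25 stem and progenitor promoters 3 were on the Delta1 side, Mycn, Cd34 (76.5 and 74.6) and Erg (16.1 and 25.0), and Hoxa5 was on the control side, at 79.2, 72.0 and 72.6. The erythroid and megakaryocyte list had 5 of 15, including Itga2b, for CD41, at 96.2 and 91.5, and all 5 were also open in the 3 LSK libraries. The mast cell and basophil list had 2 of 16 and the B lineage list 1 of 15. The macrophage and dendritic cell list had 4 of 20 on the Delta1 side, including Siglech, for a receptor of plasmacytoid dendritic cells, at 86.3 and 86.9. It had Adgre1, for F4/80, on the control side, at 74.3, 58.8 and 46.9. Of its 16 DHSs open in all 5 libraries limma called 2 higher in DN1 and 5 higher in IgG, the promoter of Cd68 and a DHS of Cx3cr1 among the 5, and the whole-list percentile gave 3 and 2. With lists of equal length the Delta1-side and control-side counts were 3 and 1 for NK and innate lymphoid cells, 2 and 1 for progenitors, and 2 and 0 for the erythroid list. They were 1 and 0 for mast cells, 0 and 0 for B cells, and 4 and 2 for macrophages and dendritic cells, where 1.60% and 1.28% of all promoters were on the sides. The DN1 and IgG cells are bulk populations, in which fewer open cells and weaker opening per cell cannot be told apart.

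**Figure D3:**
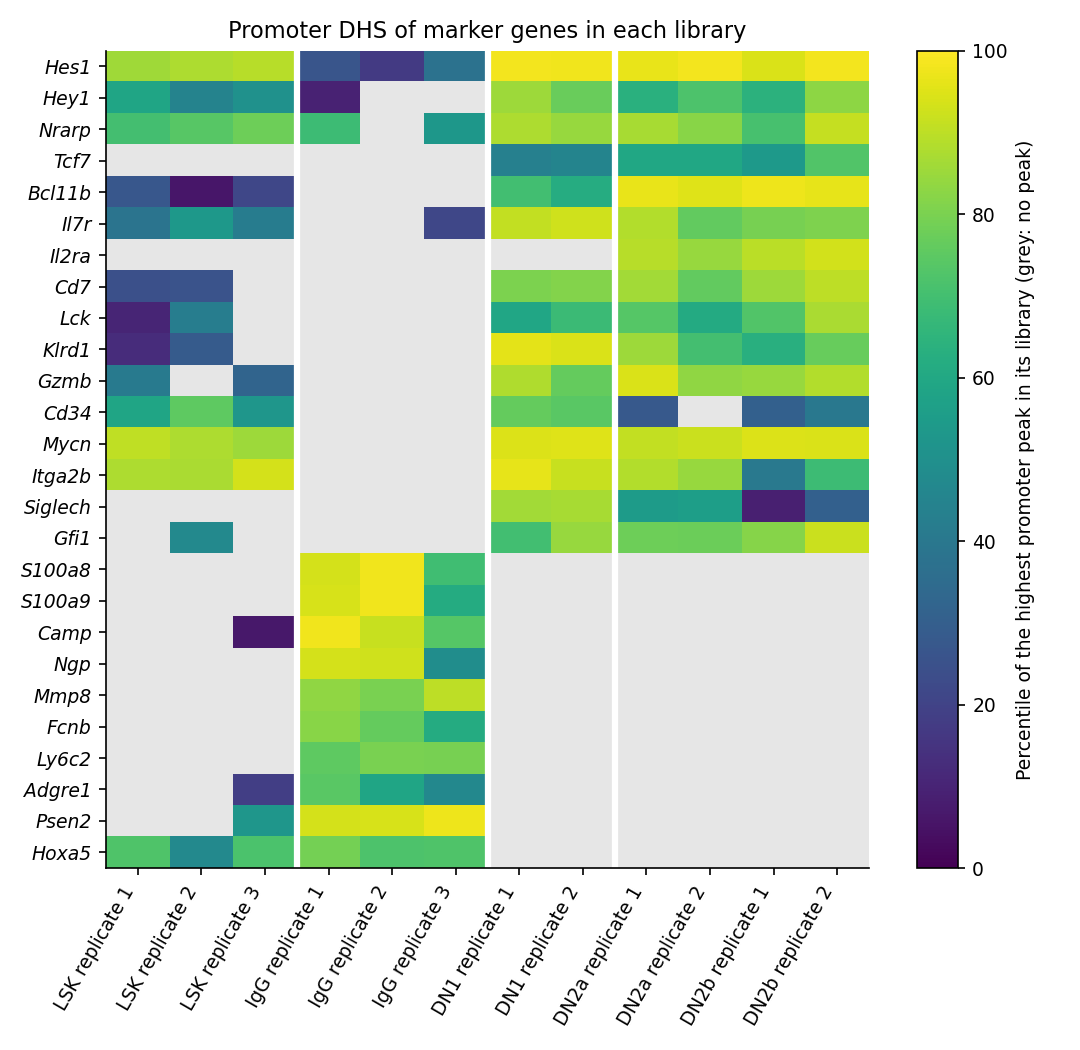
Rows are marker genes and columns are libraries, and color gives the percentile of the highest promoter peak among all peaks of that library, with grey where there was no peak. The neutrophil genes from S100a8 to Ly6c2 have peaks in IgG and none in DN1 or DN2, while Hes1 is present throughout and lowest in the 3 IgG libraries.

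Genes with many DHSs of a side were counted in the same way, within 100 kb. The genes were chosen for their counts, which are given out of all merged regions nearest to the same start. Of all merged regions 26.0% were on the Delta1 side and 3.63% on the control side. On the Delta1 side, Slc16a7, for a monocarboxylate transporter, had 15 of 21. Zfp36l2, for an RNA-binding protein that promotes mRNA decay, had 14 of 54, Arhgap32 13 of 19 and Foxn3 13 of 31. Hes1 had 13 of 25, Hivep2 13 of 29 and Sorcs2 13 of 16. On the control side Notch2 had 8 of 31, Map3k20, for a stress-activated kinase, had 7 of 33, and Tmem189 had 6 of 24. Tomm20 had 6 of 33 and Zfp36l2 had 6 of 54. Zfp36l2 thus had DHSs on both sides, but its 14 of 54 on the Delta1 side lay near the share of all merged regions. These counts are of whole lists. At equal list lengths 13.2% of all merged regions were on the Delta1 side and 10.7% on the control side. There Zfp36l2 had 13 of 45 on the Delta1 side, Cxxc5 had 9 of 19, and Foxn3 and S1pr1 had 9 of 21 each. On the control side Sfi1 had 17 of 92 merged regions, all 17 kept from LSK. Fndc3b had 8 of 16, Map3k20 8 of 27 and Notch2 8 of 20.

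Motifs were counted next in each library, a measure that the sides do not enter. The share of distal peaks (over 1 kb from every protein-coding start) that hold a motif was taken at equal list lengths, so that the DN1 and IgG libraries gave between 21945 and 22740 distal peaks. The 11 motifs were searched on both strands, with N for any base. RBPJ was searched as GTGGGAA and RUNX as TGTGGTT. The PU.1 motif was GAGGAAGT and the wider ETS motif was CCGGAAG. For E proteins the E-box was CAGCTG, and for TCF1/LEF1 the letters were ATCAAAG. The motif of GATA factors was AGATAA, that of C/EBP proteins was TTGCNNAA and that of AP-1 was TGANTCA. For STAT proteins TTCNNNGAA was used, and for the core of the CTCF site AGGGGGC. PU.1 and ETS share the run GGAAG, and a base could count for more than 1 motif. In 300 bp promoter windows of RefSeq on GRCm38.p6, 6.38% held the RBPJ motif, 5.27% RUNX, 10.8% C/EBP, 7.81% AP-1 and 3.73% TCF1/LEF1. A match is a description of sequence and not a bound site.

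The C/EBP motif was in 6.01% and 5.71% of DN1 distal peaks and in 21.9%, 18.5% and 19.2% of IgG distal peaks. The means were 5.86% ± 0.213 (SD, n = 2) and 19.9% ± 1.78 (SD, n = 3), a difference of -14.0 percentage points for DN1 minus IgG, and LSK lay near DN1 at 7.28% ± 0.0402 (SD, n = 3). The RUNX motif went the other way, at 15.9% and 16.7% in DN1 and 8.01%, 7.86% and 10.1% in IgG, with LSK at 10.97% ± 0.328 (SD, n = 3). AP-1 was at 8.65% ± 0.360 in DN1 (SD, n = 2) and 14.5% ± 2.00 in IgG (SD, n = 3). GATA was at 7.90% ± 0.792 and 4.93% ± 0.308, and the E-box at 13.7% ± 0.0403 and 10.7% ± 0.705. TCF1/LEF1 was at 2.35% ± 0.0156 and 1.42% ± 0.114, and RBPJ at 3.92% ± 0.108 and 3.08% ± 0.145, the latter with LSK at 3.17%. For these and for ETS and the CTCF core the groups did not overlap, with p = 0.1 in the two-sided exact permutation test and 0.122 after adjustment over the 11 motifs. The ETS difference of 0.454 percentage points turned to -0.470 in the whole lists, so no direction is given for it, and that of the E-box fell from 3.06 to 1.65 without a change of direction. PU.1 was at 10.2% and 10.9% in DN1 and 7.96%, 9.01% and 9.66% in IgG, without overlap (difference 1.63 percentage points, p = 0.2 in the same exact test), but the difference was 0.394 in the whole lists (exact p = 0.7). On the sides PU.1 was in 9.11% of Delta1-side and 6.26% of control-side distal DHSs. Both shares lay below the 11.5% of distal DHSs open in all 5 libraries. STAT, whose ranges overlapped, gave p = 0.8 in that exact test. The distal peaks had a GC content of 51.6% and 51.8% in DN1 and 50.3%, 49.6% and 49.9% in IgG, and the part of base composition in these shares was not tested.

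**Figure D4:**
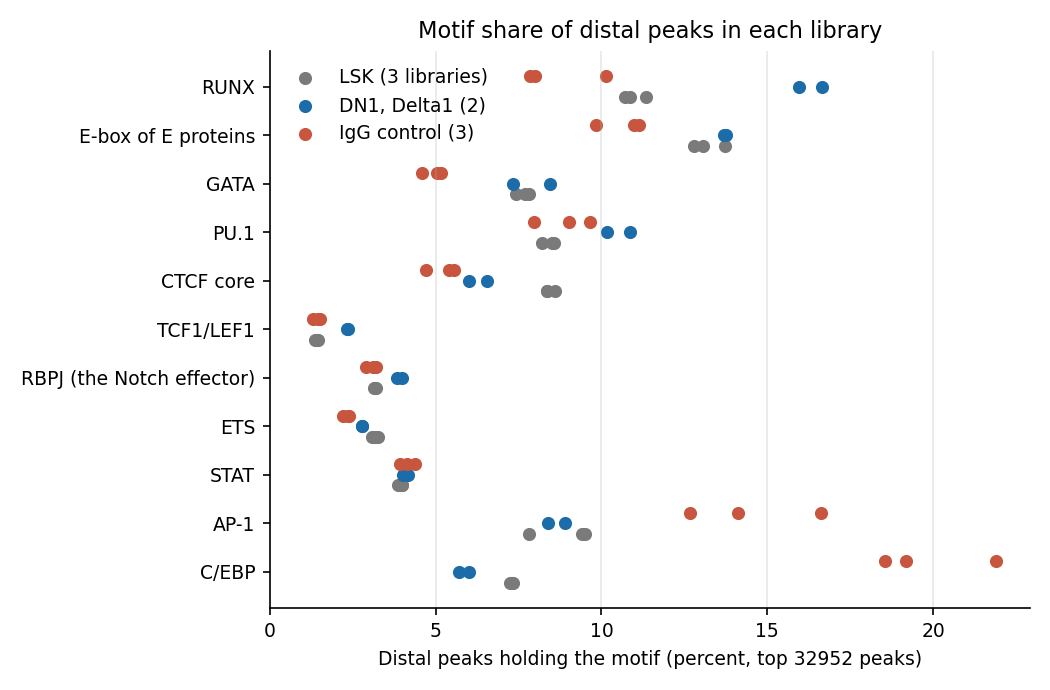
Each dot is 1 library, placed by the percent of its distal peaks that hold the motif named at the left, at equal list lengths. The IgG libraries stand apart for C/EBP, at 18.5% to 21.9%. For RUNX the DN1 libraries, at 15.9% and 16.7%, lie above the IgG libraries.

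The distal DHSs of the sides showed the same contrast, given as a description. C/EBP matches were in 41.3% of control-side DHSs (95% Wilson interval 39.8 to 42.8), in 5.04% of Delta1-side DHSs (4.79 to 5.30) and in 10.9% of those open in all 5. In the whole lists the control-side share was 39.7% in kept and 41.4% in new DHSs, and at equal list lengths 26.5% (23.5 to 29.8) and 37.7% (36.3 to 39.1). RUNX matches were in 21.6% of new Delta1-side DHSs (20.9 to 22.4), 13.3% of kept ones and 6.21% of control-side DHSs. TCF1/LEF1 matches were in 4.38% of new and 1.91% of kept Delta1-side DHSs. RBPJ matches were in 4.90% and 3.79% of these and in 1.97% of control-side DHSs. Among distal DHSs open in all 5 libraries the shares were 10.83% for RUNX, 1.317% for TCF1/LEF1 and 3.396% for RBPJ. For RBPJ the 95% Wilson interval of this share overlapped that of kept Delta1-side DHSs. It lay below that of new Delta1-side DHSs and above that of control-side DHSs.

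The 16314 DHSs open in all 5 libraries allowed a graded comparison. Each library's scores were ranked among these DHSs, turned into normal scores and tested with limma, with Benjamini-Hochberg adjustment over all of them. At an adjusted p below 0.05, limma called 1887 (11.6%) higher in DN1 and 2082 (12.8%) higher in IgG. In 1876 of the former and 2071 of the latter the groups did not overlap. That follows largely from the call itself, and the share without overlap among all 16314 was not counted. Promoters made up 46.6% of those higher in DN1 and 28.3% of those higher in IgG, and 53.2% of those not called. Most were kept from LSK, 98.9% of those higher in DN1 and 87.7% of those higher in IgG, against 95.8% of those not called. New were 0.424%, 5.76% and 2.03% in the same order. Scored by the percentile in the whole list, which places shared DHSs 12.2 percentiles higher in the longer DN1 lists at the median, the counts were 5524 and 521. Without DN1 replicate 1 they were 545 and 1111, and without DN1 replicate 2 they were 537 and 1273. In both of these fits the spread comes from the IgG libraries, and the lone DN1 library is assumed to vary like them.

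**Figure D5:**
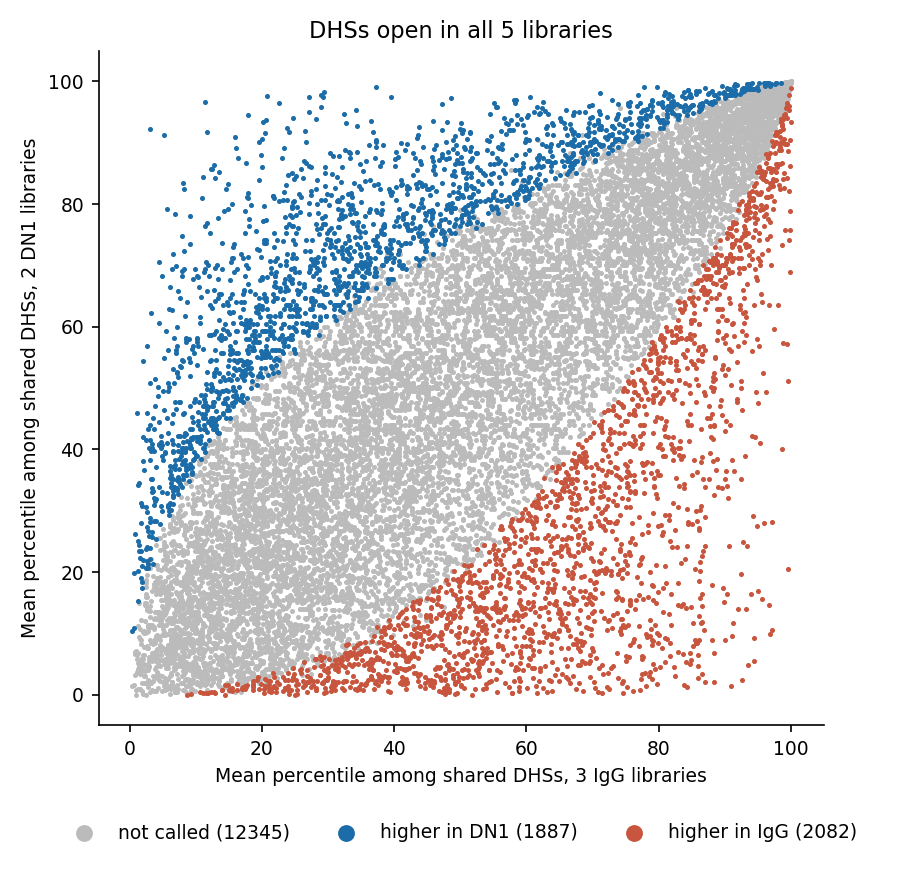
Each point is a DHS open in all 5 libraries, placed by its mean percentile among these DHSs in the 3 IgG libraries (horizontal axis) and in the 2 DN1 libraries (vertical axis). The 1887 DHSs called higher in DN1 lie above the diagonal band and the 2082 called higher in IgG below it.

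The 6 DHSs with the smallest p among those higher in DN1 lay nearest to Rplp1, Crem, Nabp1, Tedc1, Tmem80 and Rgs1. The DHS near Rgs1 (chr1:144330457-144330646, 81.3 kb before the start), for a regulator of G protein signalling, was at percentiles 94.0 and 92.7 among shared DHSs in DN1 and at 12.1, 21.9 and 26.3 in IgG, a difference of 2.36 ± 0.26 normal score units (SE, limma adjusted p = 5.42e-06). Tmem80 was the only promoter of the 6, at 97.1 and 97.6 in DN1 and 54.2, 45.7 and 45.8 in IgG.

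The 6 among those higher in IgG lay nearest to E230025N22Rik, Adssl1, Hcar2, Tpd52, Gfi1 and Mro. Near Gfi1 the DHS (chr5:107749637-107749826, in an intron 23.7 kb before the start) was at 4.57 and 5.08 in DN1 and 92.3, 96.6 and 91.8 in IgG, a difference of -3.21 ± 0.24 (SE, limma adjusted p = 1.94e-07). The promoter of the same gene was on the Delta1 side, so 2 DHSs of Gfi1 went in opposite directions. The DHS near Hcar2, for a receptor of nicotinic acid (chr5:123832417-123832666), was at 11.5 and 9.51 in DN1 and 94.0, 98.9 and 98.4 in IgG. All 12 kept their direction under the other settings in which they could be fitted, the whole-list percentile included. They kept their call where both DN1 libraries were in the fit. Because the 12 were picked by the smallest p in the same libraries, this was likely beforehand and is no separate evidence.

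Shared DHSs of the listed genes were described from the same fit, beside a median difference of 0.04 over all 16314. Of all shared DHSs 11.6% were called higher in DN1 and 12.8% higher in IgG, and by the whole-list percentile 33.9% and 3.19%, against which the counts of each list are to be read. The granulocyte and monocyte list had 36 shared DHSs at 16 genes, with a median of -0.77, and 14 were called higher in IgG and none in DN1 (7 and 1 by the whole-list percentile). They included the promoters of Cebpa (33.9 and 34.2 in DN1, 88.3, 93.3 and 89.3 in IgG, limma adjusted p = 2.4e-05), Cebpd and Spi1, which code for C/EBP alpha, C/EBP delta and PU.1. The T lineage list had 9 shared DHSs with a median of 1.38, and 5 were called higher in DN1 and none in IgG (7 and 0 by the whole-list percentile). Among the 5 were 2 DHSs of Il2ra, one of them 5.53 kb before the start, at 77.1 and 80.7 in DN1 and 15.3, 19.7 and 17.2 in IgG (limma adjusted p = 2.11e-04). The B lineage list had 4 shared DHSs with a median of 1.14, of which 2 (nearest to Pax5 and Blnk) were called higher in DN1 and none in IgG, and 4 and 0 by the whole-list percentile. The mast cell and basophil list had 0 and 2 of 4 called higher in DN1 and in IgG (1 and 0 by the whole-list percentile), and the erythroid and megakaryocyte list 1 and 0 of 10 (3 and 0). In the progenitor list, 5 of 23 were higher in DN1 (at Flt3, Lmo2, Meis1 and Lyl1) and 1 higher in IgG (at Hhex), against 10 and 0 by the whole-list percentile. Of 25 shared DHSs at Notch targets, 5 were higher in DN1 and 7 in IgG, with a median of -0.21, and the whole-list percentile gave 9 and 1, so no direction is given for that list. For the pathway genes the counts were 3 and 8 of 50, and 11 and 2 on the other scale. At Notch1, a DHS in an intron 3.16 kb past the start was at 94.0 and 91.5 in DN1 and at 13.7, 13.1 and 76.3 in IgG (limma adjusted p = 0.00143), with 1 IgG library well above the others.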

How the data were processed

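DNase-seq was measured in 12 libraries, 5 of which (2 DN1, 3 IgG) were compared, with 3 LSK libraries for the division into kept and new and 4 DN2 libraries for looking DHSs up. The authors trimmed adapters, aligned paired reads to mm10 with BWA 0.7.12 (SAMtools 1.2) and called peaks with hotspot2 at an FDR of 0.05, in 1 list per library. The deposited score of each 150 bp peak is a whole number whose meaning was not given, so it was used only as a rank within a library. The lists hold no read totals, so depth is unknown and no interval for depth can be given. They differ in length, and a site just under the threshold is lost more easily from a short list. Replicates came from independent LSK isolates according to the methods of the study.

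Genes were the 21755 protein-coding genes of GENCODE M21 on chromosomes 1 to 19 and X of GRCm38.p6, and promoter sequences came from RefSeq. Analyses used Python 3.11.15, pandas 2.3.3, SciPy 1.17.1, pysam 0.24.0, R 4.3.3 and limma 3.58.1. Shared DHSs were tested with limma on normal scores of ranks, with Benjamini-Hochberg adjustment. Single values were tested by exact permutation. On simulated data limma called 46% of 100 DHSs shifted by 2 units, 0% of 100 shifted by 1 unit and 0.0124% of 16114 unchanged DHSs. Far fewer DHSs differed there than were called in the measured data (1887 and 2082 of 16314), which makes the adjustment stricter. The measured calls had median absolute differences of 1.10 (higher in DN1) and 1.19 (higher in IgG). The simulated shares therefore do not give the power of the comparison itself. The members, gene lists and motifs were chosen with earlier results of these data known. Named were the 3 highest DHSs of each side and class (outside chromosome 18, with at most 40 merged DHSs within 50 kb), the 6 highest promoters and 5 genes with most DHSs of each side, the 6 shared DHSs with the smallest p in each direction, all Notch targets, up to 5 members of other lists with a promoter on a side, and Kit, Cd44 and Il2ra. Other members are named where the count of a list is given, and those and the listed shared DHSs were picked after their values were seen. Alternatives changed list length, threshold, merging, chromosomes, replicates, promoter window, presence rules and scale. Some items that this rule names are not reported here.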

Additional observations from a re-analysis of the deposited data

Results flagged for a closer look

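Chromosome Y was outside the comparison, and a signal appeared there. In DN1 replicate 1, 3 of the 4 Y-linked genes measured had a promoter peak, and the highest number in an IgG library was 2. DN1 replicate 2 had 0. The signal was not particular to that library, since the LSK libraries had 3, 4 and 3 and DN2b replicate 1 had 2. The sex of the donor mice was not given, and no cause was tested.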

How the results depend on the processing

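At equal list lengths, Delta1-side DHSs numbered 7851, Delta1-side promoters 347 and control-side promoters 279, and 45.4% of Delta1-side and 14.5% of control-side DHSs were kept. In the upper 50% of each list there were 17340 and 2329 DHSs on the sides, with 44.4% and 8.33% kept, and 883 and 1001 shared DHSs were ranked higher in DN1 and in IgG. Where 1 DN1 or 2 IgG libraries were enough, the sides held 66910 and 7758. A peak in at least 1 LSK library gave 61.9% and 20.3% kept, and a peak in all 3 gave 30.9% and 5.38%. Merging peaks within 150 bp gave 47.0% kept on the Delta1 side. The within-library percentile called 5524 shared DHSs higher in DN1 and 521 in IgG. Leaving out each DN1 and IgG library in turn gave 32429 to 60302 Delta1-side and 4490 to 5850 control-side DHSs, 31.2% to 49.3% and 8.61% to 19.3% kept, 1224 to 1932 and 96 to 177 promoters, 45.5% to 64.1% and 3.45% to 9.85% found again in DN2, and 537 to 2280 and 1111 to 2335 shared DHSs called. With 1 DN1 library left, that library is assumed to vary like the IgG libraries. DN1 replicate 2 decided the highest Delta1-side counts (60302 DHSs, 1932 promoters), and DN1 replicate 1 the highest control-side promoter count (177). For motifs, the difference between DN1 and IgG turned to -0.47 percentage points for ETS in whole lists, and for STAT it ran from -0.168 to 0.0638 over the omissions, above 0 without DN1 replicate 1 (0.0171) and without IgG replicate 2 (0.0638). The promoter of Cd44 turned to -16.6 percentiles at equal list lengths and ran from -3.93 (without DN1 replicate 1) to 5.89 over the omissions, and that of Igf1r to -0.156 at equal list lengths. The cause was not tested. Of the other values of named promoters 545 kept within their spread and 91 moved. All 105 values of the 12 shared DHSs with the smallest p kept their direction, and their call where both DN1 libraries were fitted. Picking these 12 by p in the same libraries made that likely. Of other shared DHSs, that of Hes1 lost its call by the within-library percentile (adjusted p = 0.622), and the rest were not followed one by one. No paired analysis was possible because the labels carry no replicate numbers. The replicate numbers used here follow the order of the libraries in the series and pair none of them. Depth is unknown, so a site without a peak may be undetected.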
